A study of Arabidopsis thaliana with 2 samples.

Results

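The gene examined here is *IBM1* (INCREASE IN BONSAI METHYLATION1, AT3G07610) of *Arabidopsis thaliana*, exon by exon. It was chosen by its locus number and lies on the plus strand of chromosome 3 at chr3:2425884-2433113 (TAIR10), as 1 of 27444 protein-coding genes on the nuclear chromosomes. Methylation was read at single cytosines in 2 whole-genome bisulfite libraries, 1 of *ibm1-1* homozygous plants of the first mutant generation in Ler-0 and 1 of such plants in Col-0. Both came from rosettes of plants aged 3 weeks, kept at 21°C under long days (16 h light, 8 h dark), and each started from 150 ng of DNA. The *ibm1-1* allele arose in Col-0 and had been moved to Ler-0 by 4 backcrosses, so that both libraries carry the mutation in the very gene examined. No wild-type library was analysed here, so the levels below compare 2 mutants and not a mutant with its wild type. How many plants went into each library is not given in the sources used here.

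IBM1 is a histone demethylase that takes dimethyl marks off lysine 9 of histone H3. In plants this mark is bound by chromomethylases such as CMT3, which methylate cytosines in the CpHpG context (H is A, C or T), and methylated CpHpG in turn recruits the histone methyltransferases KYP, SUVH5 and SUVH6. IBM1 keeps this loop out of the bodies of active genes, which carry CpG methylation alone, a mark copied by MET1. *IBM1* is itself a gene with a large methylated intron, and a full-length transcript needs the intron-binding proteins IBM2, EDM2 and EDM3.

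Each library is a single sample, so no difference between the ecotypes could be tested and no p-value was calculated. Levels are methylated calls as a percentage of all calls, with both strands and all cytosines of a region pooled. Each stands with its 95% Wilson interval, or each difference (Ler-0 minus Col-0, in percentage points) with its 95% Newcombe interval. These cover counting error only, not the spread between plants. *IBM1* was covered at similar depth in both, with a mean of 10.1 reads per CpHpG position in the Ler-0 library and 10.2 in the Col-0 library. Over all cytosines of the gene the mean on the plus strand was 10.4 in Ler-0 and 10.6 in Col-0. On the minus strand it was 5.22 in Ler-0 and 5.97 in Col-0. All cytosines of the genome, both strands together, had a mean of 6.58 reads in Ler-0 and 8.63 in Col-0. Methylated calls in the chloroplast, whose DNA is unmethylated, made up 1.38% in Ler-0 and 1.34% in Col-0, so levels near this value could not be told from failed conversion.

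The *IBM1* copy in the library labelled Ler-0 carried Col-0 sequence, as a line backcrossed for a Col-0 allele can. Some positions tell the copies apart. At cytosines of the Ler-0 assembly where Col-0 has A or G, reads of Ler-0 DNA can align but reads of Col-0 DNA give no call. Of 5 such cytosines in the gene and its flanks, 0 had a read in the Ler-0 library. Within 250000 bp on each side of the gene 8 of 214 did (3.74%), against 77.1% of 126188 over the nuclear genome. Every read at Ler-0 cytosines of the gene where Col-0 has T was unmethylated. The comparison is therefore of Col-0 sequence at *IBM1* in a Ler-0 background against the same sequence in Col-0. The reads of the Ler-0 library had nevertheless been aligned to the Ler-0 assembly, which differs from Col-0 within the gene at 38 bases, lacks 7 Col-0 bases and holds 30 extra bases in 5 insertions. Of the 466 CpHpG cytosines of the Col-0 gene, 453 are in the same context in Ler-0, and over these shared positions alone the CpHpG difference of the gene given below was 12.9 points in place of 12.5. Pooled Ler-0 levels below use all cytosines of the Ler-0 assembly, so calls at a T of Col-0 count there as unmethylated. Contexts are also those of the Ler-0 assembly. Where it lacks a CpG or CpHpG of Col-0, a cytosine there can count in another context.

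The RefSeq annotation gives *IBM1* 3 transcripts. Numbering here follows the one with the longest coding sequence (3150 bases), with 17 exons between chr3:2426069 and chr3:2432913. The 185 bp before exon 1 and the 200 bp after exon 17, which belong to the gene through other transcripts, were kept apart. Another transcript has 16 exons and a coding sequence of 3084 bases, lacks exon 8 and starts the next exon slightly earlier. Intron 7, exon 8 and intron 8 up to that start make 1 long intron of 1974 bp at chr3:2429125-2431098 (27.3% of the gene). The third has 7 exons and ends at chr3:2430203, inside the long intron. Below, "the long intron" means these 1974 bp, split where needed at the end of the short transcript.

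A CpCpG site holds a CpHpG cytosine (external) next to a CpG cytosine (internal), and the context can be read on either strand. Among the sites of the gene, 3 are shown with the 13 bases on each side, 5′ to 3′ on the strand of the site, with the CpCpG in capitals. The exon 6 site had the largest difference between libraries at its external cytosine, among sites outside the long intron with at least 5 reads at both cytosines in both libraries. The other 2 had the most reads of such sites in the long intron, since none of the sites in the annotated intron 7 reached these reads in both libraries.
exon 6 site (chr3:2427829-2427857, plus strand): gccaaagggtaagCCGgatgataagccga
intron 8 site, 5′ (chr3:2429911-2429939, minus strand): tgtcgcatcttttCCGtatactatttaga
intron 8 site, 3′ (chr3:2430985-2431013, minus strand): ataacaccctggaCCGttattttttattt

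The gene body of *IBM1* carried more CpHpG methylation in Ler-0 than in Col-0, at a near equal pooled level of CpG methylation. CpHpG reached 32.2% in Ler-0 (1518 of 4711 calls) and 19.8% in Col-0 (941 of 4762), a difference of 12.5 points (10.7 to 14.2). CpG stood at 40.1% in Ler-0 and 37.8% in Col-0 (difference 2.37, −0.18 to 4.92), and CpHpH at 3.12% in Ler-0 and 1.63% in Col-0 (difference 1.49, 1.13 to 1.86). These CpG levels pool 300 cytosines of the Ler-0 assembly and 292 of Col-0, and over shared CpG positions alone the difference was larger. Among protein-coding genes with enough reads, 7.61% in Ler-0 and 10.4% in Col-0 had a CpHpG level at or above that of *IBM1*, and for 7.36% the difference was at least as large. The difference was larger over the exons, at 36.9% in Ler-0 and 21.7% in Col-0 (15.2 points, 13.01 to 17.4), than over the introns outside the long intron, at 20.2% in Ler-0 and 11.6% in Col-0 (8.55 points, 4.65 to 12.5).

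Of the 33 exons and introns, 26 had at least 20 CpHpG calls in both libraries (14 exons and 12 introns). In Ler-0 3 of the 26 were at or above 50% CpHpG, against 7.88% of all exons and introns of protein-coding genes. They were 2 of the 14 exons (6.69% of all exons) and 1 of the 12 introns (9.72% of all introns). In Col-0 0 of the 26 were, against 3.82% of all (3.19% of exons and 4.79% of introns). Over shared positions alone 4 were in Ler-0, with intron 4 added, and 0 in Col-0. Under 5% were 5 of the 14 exons in Ler-0 (background 58.3% of exons) and 6 of 14 in Col-0 (64.6%), and 7 of the 12 introns in each library (49.5% of introns in Ler-0, 57.6% in Col-0). The level was higher in Ler-0 in 17 of the 26, against 56.2% of all exons and introns. The interval of the difference lay above 0 in 8 of the 26 (20.1% of all) and below 0 in 1 (6.28% of all). The median exon of *IBM1* had 12.2% CpHpG in Ler-0 and 6.30% in Col-0, and the median intron 0.54% in Ler-0 and 3.80% in Col-0.

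**Figure D1:**
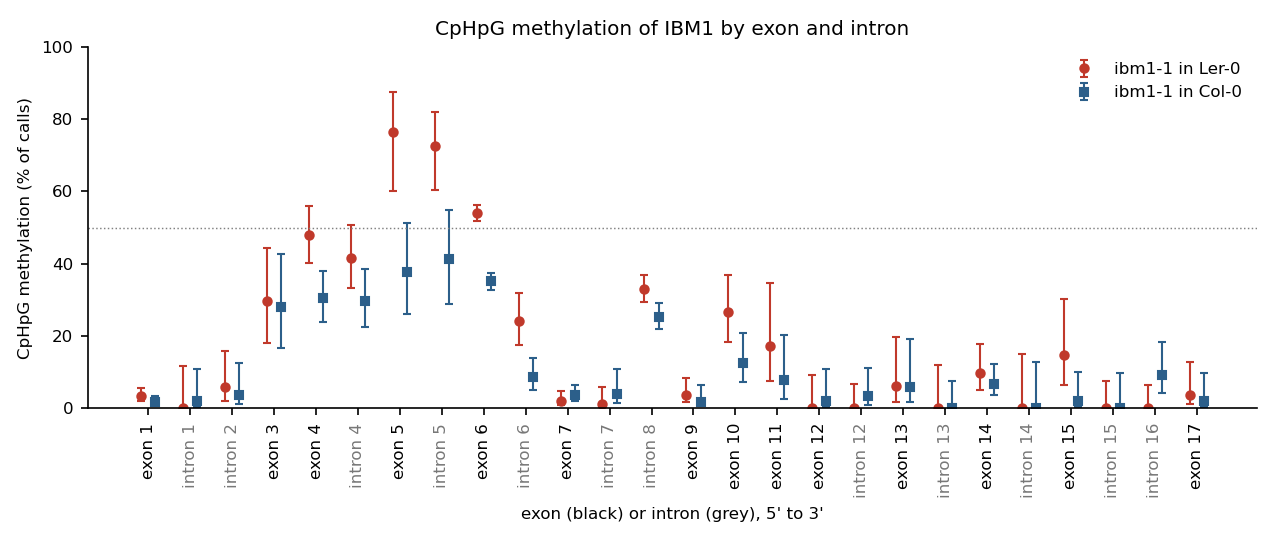
CpHpG methylation (% of calls, linear axis) of the 26 exons (black labels) and introns (grey labels) of IBM1 with at least 20 calls in both libraries, in Ler-0 (red circles) and Col-0 (blue squares), with 95% Wilson intervals as bars and 50% as a dotted line. Levels are highest at exon 5 and intron 5, lower in exon 6 and low from exon 7 to intron 7. Exon 5, intron 5 and exon 6 are above the line in Ler-0 alone.

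The 5′ end of the gene was low in pooled CpHpG and in CpG. Exon 1 (chr3:2426069-2426600), which holds the start of the coding sequence, had 3.37% CpHpG in Ler-0 (13 of 386 calls) and 1.75% in Col-0 (8 of 458), and 1.01% CpG in Ler-0 and 1.21% in Col-0. Intron 2 was at 5.88% CpHpG in Ler-0 and 3.70% in Col-0. Single trinucleotides here rest on few calls, such as CpApG of exon 1 with 6 of 52 methylated in Ler-0 (11.5%) and 2 of 66 in Col-0 (3.03%), and CpTpG of intron 2 with 3 of 23 in Ler-0 and 2 of 21 in Col-0. CpHpG methylation set in at exon 3, with 29.5% in Ler-0 (13 of 44 calls) and 27.9% in Col-0 (12 of 43), so the libraries did not differ beyond counting error where the methylated stretch began (difference 1.64, −17.0 to 20.1).

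Exons 4 to 6 and the introns between them made up the most methylated part of the coding region. Exon 5 (chr3:2427387-2427450) had the highest CpHpG level in Ler-0, 76.5% (26 of 34 calls), against 37.7% in Col-0 (20 of 53). Intron 5 (chr3:2427451-2427555) followed with 72.6% in Ler-0 (45 of 62 calls) and 41.2% in Col-0 (21 of 51), the highest level of any exon or intron in Col-0. Their Wilson intervals did not overlap between the libraries. The 3 largest pooled differences of the 26 were those of exon 5 (38.7 points, 17.5 to 54.9), intron 5 (31.4, 13.1 to 47.1) and exon 6 (19.0, 15.8 to 22.2). Over shared positions alone the difference of intron 4 was larger than that of exon 6. Neither exon 5 nor intron 5 had a methylated CpG call in either library. Exon 5 had 0 of 12 in Ler-0 (up to 25%) and 0 of 9 in Col-0 (up to 33.3%), and intron 5 had 0 of 9 in Ler-0 (up to 33.3%) and 0 of 5 in Col-0 (up to 60%). Exon 4 had 48.0% CpHpG in Ler-0 and 30.5% in Col-0 (difference 17.5, 6.77 to 27.8), with 53.9% CpG in Ler-0 and 49.4% in Col-0. Its CpG levels pool 8 cytosines of the Ler-0 assembly but 6 of Col-0. Over shared CpG positions alone its Ler-0 level was higher than the pooled one, and so was the CpG difference. Intron 4 was at 41.7% CpHpG in Ler-0 and 29.8% in Col-0, and the interval of the difference reached 0 (−0.17 to 23.5). These levels pool 13 CpHpG cytosines in Ler-0 and 9 in Col-0. Over shared positions alone intron 4 was above 50% in Ler-0, and its difference was larger than the pooled one.

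Exon 6 (chr3:2427556-2428426), the longest of the gene with 871 bases, all coding, held most of the methylated CpHpG calls. It spans 12.05% of the gene and gave 66.5% of these calls in Ler-0 and 61.3% in Col-0, but also 39.6% of all CpHpG calls in Ler-0 and 34.5% in Col-0. Its CpHpG level was 54.1% in Ler-0 (1010 of 1867 calls, 51.8 to 56.3) and 35.1% in Col-0 (577 of 1645, 32.8 to 37.4). Its CpG level ran the other way, at 84.5% in Ler-0 and 89.9% in Col-0 (difference −5.46, −8.77 to −2.13). Without 2 cytosines of its repeat, at chr3:2427795 and chr3:2427807, CpG was at 87.6% in Ler-0 and 89.2% in Col-0, and the interval of the difference included 0 (−1.56, −4.98 to 1.90). These 2 were picked because they were lower in Ler-0, so leaving them out had to narrow the difference. CpHpH in exon 6 was at 6.36% in Ler-0 and 2.57% in Col-0 (difference 3.79, 2.82 to 4.77). On the plus strand this pools 77 cytosines of the Ler-0 assembly and 75 of Col-0. The 100-bp window that starts 2100 bp from the gene start had 19.2% CpHpH in Ler-0 and 3.72% in Col-0. It holds CpCpG sites of Col-0 that the Ler-0 assembly lacks. How far such changes of context enter the CpHpH difference was not tested. Without exon 6 the CpHpG level of the gene was 17.9% in Ler-0 and 11.7% in Col-0, and the difference fell to 6.18 points (4.38 to 7.99).

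The reads of exon 6 were unevenly split between the strands. The plus strand had a mean of 34.9 reads per CpHpG position in Ler-0 and 29.0 in Col-0, and the minus strand 6.26 in Ler-0 and 7.38 in Col-0. Levels were close on the 2 strands, with 54.8% on the plus and 49.8% on the minus strand in Ler-0, and 36.5% on the plus and 29.0% on the minus strand in Col-0. The excess of Ler-0 therefore appeared on both.

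Inside exon 6 lies a stretch of 160 bp (chr3:2427762-2427921) in which the sequence repeats itself every 12 bases, with 78.1% of bases matching those 12 bases further on in its best 96-bp window. The exon 6 site printed above is from this stretch, and its line holds 2 copies of the CpCpG, 12 bases apart. The Ler-0 assembly has 12 extra bases here, the only insertion between the ecotypes in the coding sequence, and the part that read placement in the repeat plays in the levels was not tested. The pooled CpHpG difference was beyond counting error in the repeat and after it, but not before it. CpHpG stood at 62.9% in Ler-0 and 57.2% in Col-0 before it (difference 5.67, −2.19 to 13.5), at 56.8% in Ler-0 and 41.9% in Col-0 in it (14.95, 8.47 to 21.3), and at 50.2% in Ler-0 and 25.5% in Col-0 after it (24.7, 20.5 to 28.7). The 3 pieces differ in how many of their calls come from CpCpG, a context described below. At CpApG and CpTpG together, the level was 75.8% in Ler-0 and 58.9% in Col-0 before the repeat (16.98 points, 6.65 to 27.0), 64.2% in Ler-0 and 32.6% in Col-0 in it (31.6, 21.7 to 40.6), and 51.0% in Ler-0 and 23.4% in Col-0 after it (27.6, 23.4 to 31.7). After the repeat the Ler-0 value includes positions that are not shared, and over shared positions alone it was lower. In these contexts Ler-0 was higher in all 3 pieces.

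In 100-bp windows along the exon the gap between the libraries varied with no steady trend. The window that starts 1600 bp from the gene start, which holds the start of exon 6, had 75.7% CpHpG in Ler-0 (37 calls) and 50% in Col-0 (30 calls). Further on, the window at 1800 bp had 50% in Ler-0 and 48.2% in Col-0, and that at 2200 bp 45.1% in Ler-0 and 19.8% in Col-0. At 2500 bp the window, which reaches into intron 6, had 38.7% in Ler-0 and 7.46% in Col-0. Intron 6 as a whole, at the end of the exon, kept 24.1% CpHpG in Ler-0 (32 of 133 calls) and 8.497% in Col-0 (13 of 153), a difference of 15.6 points (7.07 to 24.2), with no methylated CpG call in either library. By exon 7 both libraries were low again.

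**Figure D2:**
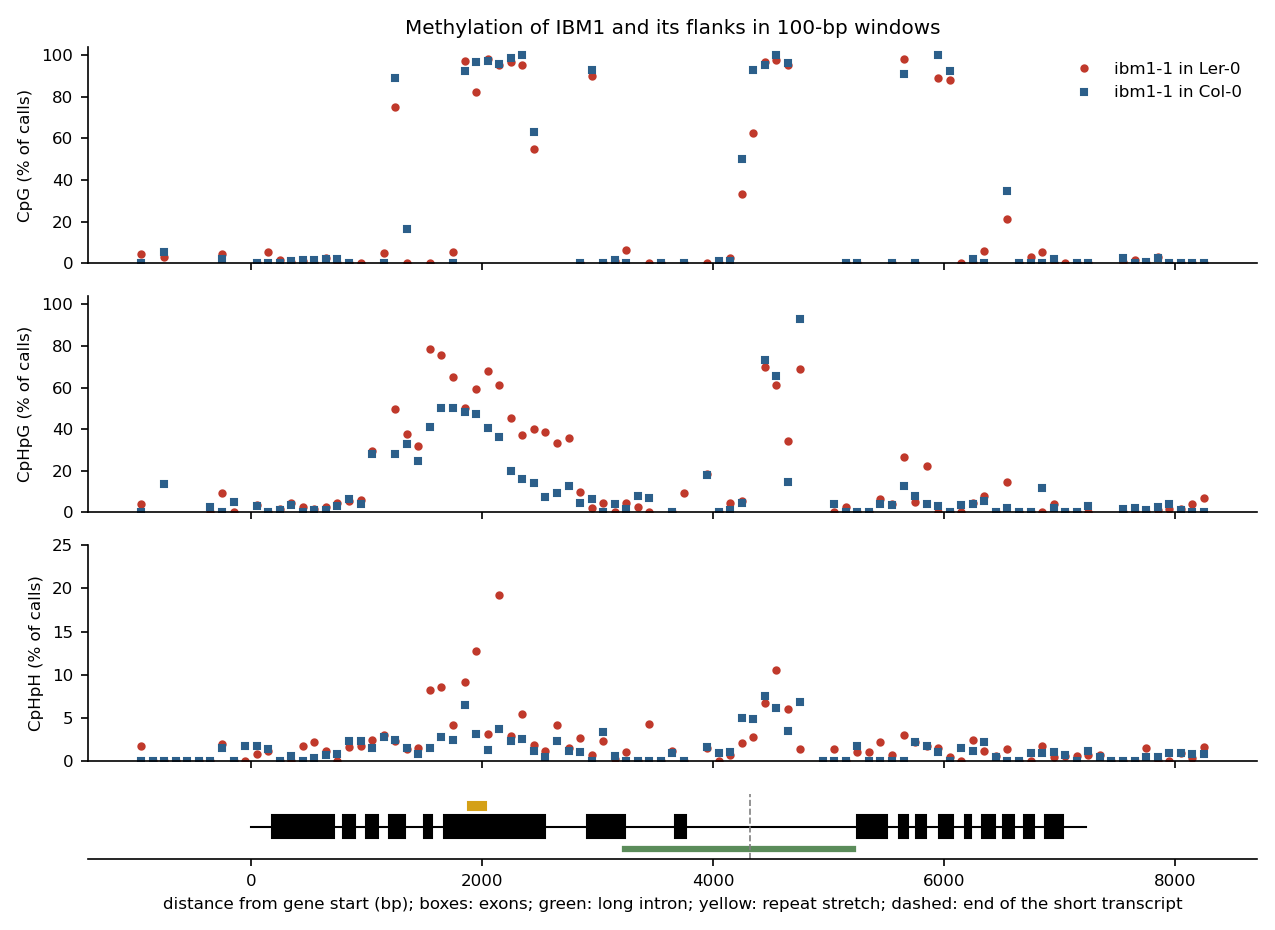
CpG, CpHpG and CpHpH methylation (% of calls, each axis with its own range) of IBM1 and 1 kb on either side in 100-bp windows with at least 10 calls, against distance from the gene start, in Ler-0 (red circles) and Col-0 (blue squares). The bottom track shows the exons (boxes), the long intron (green), the repeat stretch of exon 6 (yellow) and the end of the short transcript (dashed). The red CpHpG points stay above the blue ones from about exon 4 to intron 6, and in the long intron neither colour stays on top.

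The size of the difference in exon 6 went with the trinucleotide. At CpApG the level was 56.6% in Ler-0 (321 of 567 calls) and 26.7% in Col-0 (129 of 484), a difference of 30.0 points (24.1 to 35.5). At CpTpG it was 55.6% in Ler-0 (460 of 828) and 30.6% in Col-0 (219 of 715), a difference of 24.9 points (20.1 to 29.6). At the external cytosine of CpCpG it was 48.5% in Ler-0 (229 of 472) and 51.3% in Col-0 (229 of 446), a difference of −2.83 points with an interval on both sides of 0 (−9.25 to 3.63). The intervals of the CpApG and CpTpG differences did not overlap that of CpCpG. The CpCpG value of Col-0 includes 2 sites, at chr3:2428023 and chr3:2428024, which the Ler-0 assembly lacks and which had 22 of 31 and 7 of 9 external calls methylated. The CpApG value pools 36 cytosines in Ler-0 and 35 in Col-0. Over shared positions alone the Ler-0 CpApG level and the CpApG difference were smaller, and Ler-0 was still higher. Over the 10 sites of exon 6 read in both libraries with a methylated internal cytosine, the external level was 50.2% in Ler-0 (218 of 434 calls) and 50% in Col-0 (185 of 370, difference 0.23, −6.67 to 7.13). The contrast was also there within the repeat stretch, where the CpCpG sites cluster: CpApG was at 74.3% in Ler-0 and 41.0% in Col-0, CpTpG at 57.8% in Ler-0 and 26.2% in Col-0, and external CpCpG at 51.8% in Ler-0 and 48.8% in Col-0. Over all protein-coding genes, CpApG was at 19.3% in Ler-0 and 13.5% in Col-0, CpTpG at 18.2% in Ler-0 and 12.5% in Col-0, and external CpCpG at 8.85% in Ler-0 and 7.44% in Col-0, so the gap was smaller at CpCpG there too.

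The rest of the gene differed less by context. In the other exons CpApG was at 15.6% in Ler-0 and 8.70% in Col-0, CpTpG at 15.01% in Ler-0 and 9.77% in Col-0, and external CpCpG at 4.98% in Ler-0 and 3.59% in Col-0. In the introns outside the long intron external CpCpG had 0 methylated calls of 30 in Ler-0 and of 28 in Col-0, which allows up to 10% in Ler-0 and 10.7% in Col-0.

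**Figure D3:**
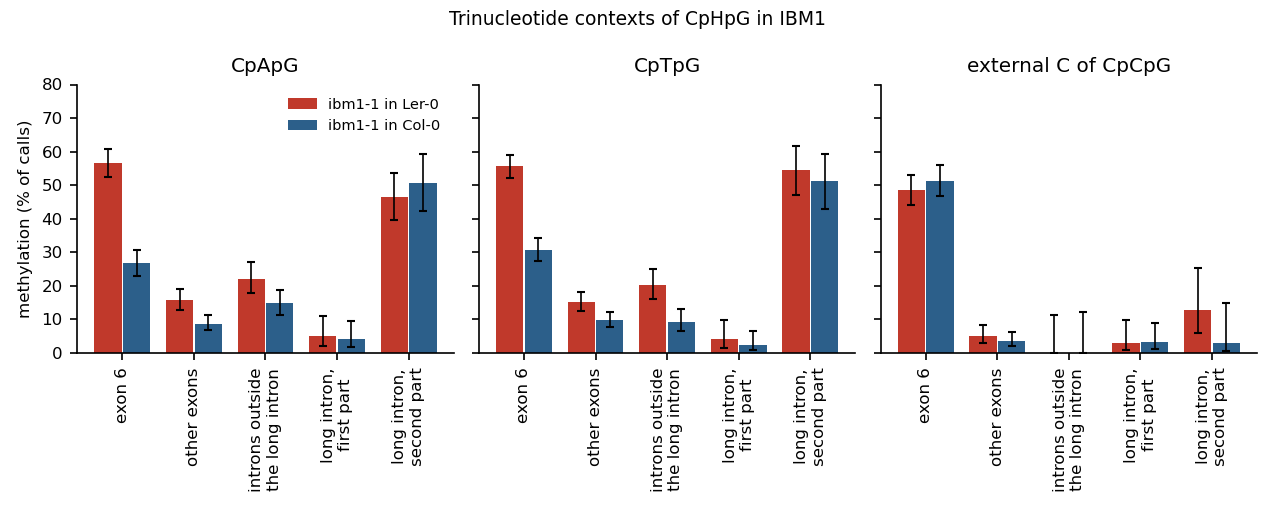
Methylation (% of calls, linear axis from 0) at CpApG, CpTpG and the external cytosine of CpCpG in 5 areas of IBM1, in Ler-0 (red bars) and Col-0 (blue bars), with 95% Wilson intervals. In exon 6 the red bars are at 56.6% and 55.6% for CpApG and CpTpG and the blue ones at 26.7% and 30.6%, while at CpCpG both are near 50%, and in the second part of the long intron both colours are close at CpApG and CpTpG.

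The long intron held a methylated stretch in its middle and was read in 2 parts, before and after the end of the short transcript. Before that end (1079 bp), CpHpG was at 4.01% in Ler-0 (11 of 274 calls) and 3.21% in Col-0 (11 of 343), and CpG at 4.02% in Ler-0 and 5.30% in Col-0. After it (895 bp), CpHpG was at 45.9% in Ler-0 (187 of 407 calls, 41.2 to 50.8) and 45.5% in Col-0 (137 of 301, 40.0 to 51.2), and CpG at 83.9% in Ler-0 and 85.9% in Col-0. This split is not where methylation begins or stops. The window at 4200 bp from the gene start, before it, had 33.3% CpG in Ler-0 (24 calls) and 50% in Col-0 (30 calls), and the window at 5000 bp, near the 3′ end of the intron, had 0 of 30 CpHpG calls methylated in Ler-0 (up to 10%) and 3.70% of 27 in Col-0. The 3′ part as a whole had a CpHpG level near that of exon 6 in Ler-0, but the libraries did not differ there beyond counting error (difference 0.43, −6.97 to 7.79). CpHpH in this part was at 6.03% in Ler-0 and 4.57% in Col-0. Its highest windows were those that start 4400, 4500 and 4700 bp from the gene start, with 69.7%, 61.1% and 68.8% CpHpG in Ler-0, and 73.2%, 65.7% and 92.9% in Col-0, where the window at 4700 bp rests on 16 calls in Ler-0 and 14 in Col-0.

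As a whole the long intron had 29.1% CpHpG in Ler-0 (198 of 681 calls) and 23.0% in Col-0 (148 of 644), a difference of 6.09 points (1.36 to 10.8). As pooled, neither part differed by as much as 1 point, and the 3′ part gave 407 of 681 calls in Ler-0 and 301 of 644 in Col-0. But the 3′ part had 23 plus-strand and 22 minus-strand CpHpG positions in Ler-0, against 21 and 20 in Col-0. Over shared positions alone its Ler-0 level was higher than the pooled one. How far the difference of the whole went with where the reads lay was not tested. Of the introns of at least 1000 bp with enough reads in all genes, 21.3% in Ler-0 and 20.9% in Col-0 were at or above its level. At or above 50% were 5.91% of them in Ler-0, 4.72% in Col-0 and 3.15% in both libraries, and the long intron was not among these. The piece numbered intron 7 (chr3:2429125-2429558, 434 bp) lies in the 5′ part and had 1.09% CpHpG in Ler-0 (1 of 92 calls) and 3.90% in Col-0 (3 of 77), among the 3 lowest differences of the gene (−2.81, −9.81 to 2.65). Its neighbours were low too: exon 7 (chr3:2428795-2429124) had 1.90% in Ler-0 and 3.55% in Col-0, and the alternative exon 8 had 1 methylated call of 7 in Ler-0 and 0 of 6 in Col-0. Intron 8, which holds the methylated stretch, had 32.9% in Ler-0 and 25.3% in Col-0. On either side of the long intron, the last 100 bp of exon 7 were at 2.20% CpHpG in Ler-0 and 3.23% in Col-0, and the first 100 bp after it had 0 methylated calls of 50 in Ler-0 and of 56 in Col-0.

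The 9 exons 3′ of the long intron, which encode the C-terminal part of the protein, had 9.74% CpHpG in Ler-0 (49 of 503 calls) and 5.32% in Col-0 (31 of 583), a difference of 4.42 points (1.29 to 7.71). Their methylation came in single exons. Exon 10 (chr3:2431497-2431569) had 98.2% CpG in Ler-0 and 90.9% in Col-0, with 26.5% CpHpG in Ler-0 (22 of 83) and 12.6% in Col-0 (12 of 95). Exon 12 had 88.2% CpG in Ler-0 and 95.2% in Col-0 yet almost no CpHpG, with 0 of 38 calls methylated in Ler-0 (up to 7.89%) and 1 of 48 in Col-0. Exon 15 had 14.7% CpHpG in Ler-0 (5 of 34) and 1.92% in Col-0 (1 of 52), with 21.4% CpG in Ler-0 and 34.9% in Col-0. At the 3′ end the last exon, 17, was at 3.77% CpHpG in Ler-0 (2 of 53) and 1.85% in Col-0 (1 of 54). The 2 lowest differences of the gene were in introns of this end: intron 16 had 0 of 57 methylated CpHpG calls in Ler-0 (up to 5.26%) and 6 of 66 in Col-0 (9.09%), the one feature whose interval lay below 0 (−18.4 to −1.12), and intron 12 had 0 of 53 in Ler-0 (up to 5.66%) and 2 of 61 in Col-0.

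CpG methylation of *IBM1* lay in the same exons in the 2 libraries. It was concentrated in exons 4, 6, 7, 10, 12 and 15 and in the 3′ part of the long intron, and was at most 5.88% in every other exon with CpG calls. Intron 4 was an exception, with 0 of 11 CpG calls methylated in Ler-0 (up to 27.3%) and 10 of 25 in Col-0 (40%), all of them at its only CpG, read on both strands. In exon 7 it sat at the 5′ end: the window at 2900 bp was at 90.1% in Ler-0 and 93.0% in Col-0, whereas the last 100 bp had 3.23% in Ler-0 and 0 of 124 calls in Col-0. Methylated CpG and CpHpG calls did not coincide throughout. Exon 5, intron 5 and intron 6 had CpHpG methylation but no methylated CpG call. Their CpG calls were few, which allows up to 60% CpG in intron 5 of Col-0. Exons 7 and 12 had CpG methylation with little CpHpG. CpHpH was at most 4.24% in every other exon and intron than exons 5 and 6, beside the 3′ part of the long intron. In exon 5 it was 9.76% in Ler-0 (12 of 123 calls over 23 cytosines) and 2.06% in Col-0 (2 of 97 over 22). In the repeat stretch of exon 6 CpHpH was 11.2% in Ler-0 and 2.55% in Col-0. There the excess lay on the plus strand, with 13.7% of 328 calls over 6 cytosines in Ler-0 and 3.56% of 225 over 5 in Col-0. On its minus strand CpHpH was at 1.20% in each library.

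Both flanks of *IBM1* were unmethylated. The 1 kb before the gene had 3.90% CpHpG in Ler-0 (3 of 77 calls) and 4.41% in Col-0 (6 of 136), and the 1 kb after it 0.91% in Ler-0 (5 of 547) and 1.72% in Col-0 (10 of 580). CpG in these flanks was at most 2.91% in Ler-0 and 1.97% in Col-0. In 500-bp tiles over the gene, 3 of 13 were at least 10 points higher in Ler-0 in CpHpG, against 13.6% of 104825 gene tiles, and 0 of 13 at least 10 points lower, against 4.04%.

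At single CpCpG sites, the external cytosine was methylated only where the internal one was too. A site was read where both cytosines had at least 5 reads, and called methylated at 50% for the internal and 25% for the external cytosine. Of 69 sites of the gene in Ler-0, 42 could be read, of which 27 were unmethylated, 4 were methylated at the internal cytosine only (CpmCpG) and 11 at both (mCpmCpG). Among the 27 is a site of the Ler-0 assembly alone, at chr3:2432054 in intron 12, with 0 of 13 calls methylated at each cytosine. Of 70 sites in Col-0, 46 could be read, of which 30 were unmethylated, 6 CpmCpG and 10 mCpmCpG. The internal cytosine was thus methylated at 15 of 42 sites in Ler-0 (35.7%, 23.0 to 50.8) and 16 of 46 in Col-0 (34.8%, 22.7 to 49.2), against 22.8% of sites in all genes in Ler-0 and 22.6% in Col-0. Methylation at the external cytosine only was found at 0 sites in either library, which allows a share of up to 7.14% in Ler-0 and 6.52% in Col-0, and in all genes at 0.396% of sites in Ler-0 and 0.355% in Col-0.

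Patterns of single sites were nearly the same in both libraries. Of 40 sites read in both, 26 were unmethylated in both, 4 were CpmCpG in both and 8 mCpmCpG in both. The 2 others were mCpmCpG in Ler-0 and CpmCpG in Col-0. One is in exon 6 at chr3:2428355, with 10 of 30 external calls methylated in Ler-0 and 5 of 21 in Col-0, and one in exon 10 at chr3:2431537, with 6 of 21 in Ler-0 and 2 of 21 in Col-0, so few calls separate the patterns. Exon 6 held 10 of the 14 sites methylated at the internal cytosine in both. Over these 14 the external cytosine was at 45.3% in Ler-0 (226 of 499 calls) and 43.9% in Col-0 (189 of 431), a difference of 1.44 points (−4.95 to 7.80), and it was higher in Ler-0 at 5 sites and lower at 9.

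Single sites of the repeat stretch spread widely. The exon 6 site printed above had 54 of 54 internal and 43 of 53 external calls methylated in Ler-0 (81.1% external), against 43 of 45 and 22 of 45 in Col-0 (48.9% external). The neighbouring sites at chr3:2427795 and chr3:2427807 went the other way at the internal cytosine, with 24 of 48 and 47 of 62 calls methylated in Ler-0, against 40 of 43 and 46 of 47 in Col-0. The CpG level of the whole stretch, in which the Ler-0 assembly has its 12 extra bases, was 85.8% in Ler-0 and 97.1% in Col-0 (difference −11.3, −16.0 to −6.81). Both intron 8 sites printed above had no methylated call at either cytosine: the 5′ one had 8 reads in Ler-0 and 17 in Col-0 at its internal cytosine, and the 3′ one 13 in Ler-0 and 12 in Col-0. Between them in the methylated stretch, the sites at chr3:2430477 and chr3:2430498 were CpmCpG in both libraries, with 11 of 11 internal calls methylated at each in Ler-0 and 9 of 9 in Col-0. At their external cytosines 1 of 11 calls was methylated at each site in Ler-0, and 1 of 9 and 0 of 9 in Col-0. The neighbouring site at chr3:2430527 was mCpmCpG in Ler-0, with 11 of 12 internal and 4 of 12 external calls methylated, and had too few reads in Col-0 (3 of 4 internal and 0 of 4 external). CpApG in the 3′ part of the intron was at 46.6% in Ler-0 and 50.8% in Col-0. This Ler-0 value counts unmethylated calls at cytosines of the Ler-0 assembly where Col-0 has T. Over shared positions alone the CpApG levels of the libraries were nearly equal. External CpCpG in this part was at 12.8% in Ler-0 (6 of 47 calls) and 2.94% in Col-0 (1 of 34).

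**Figure D4:**
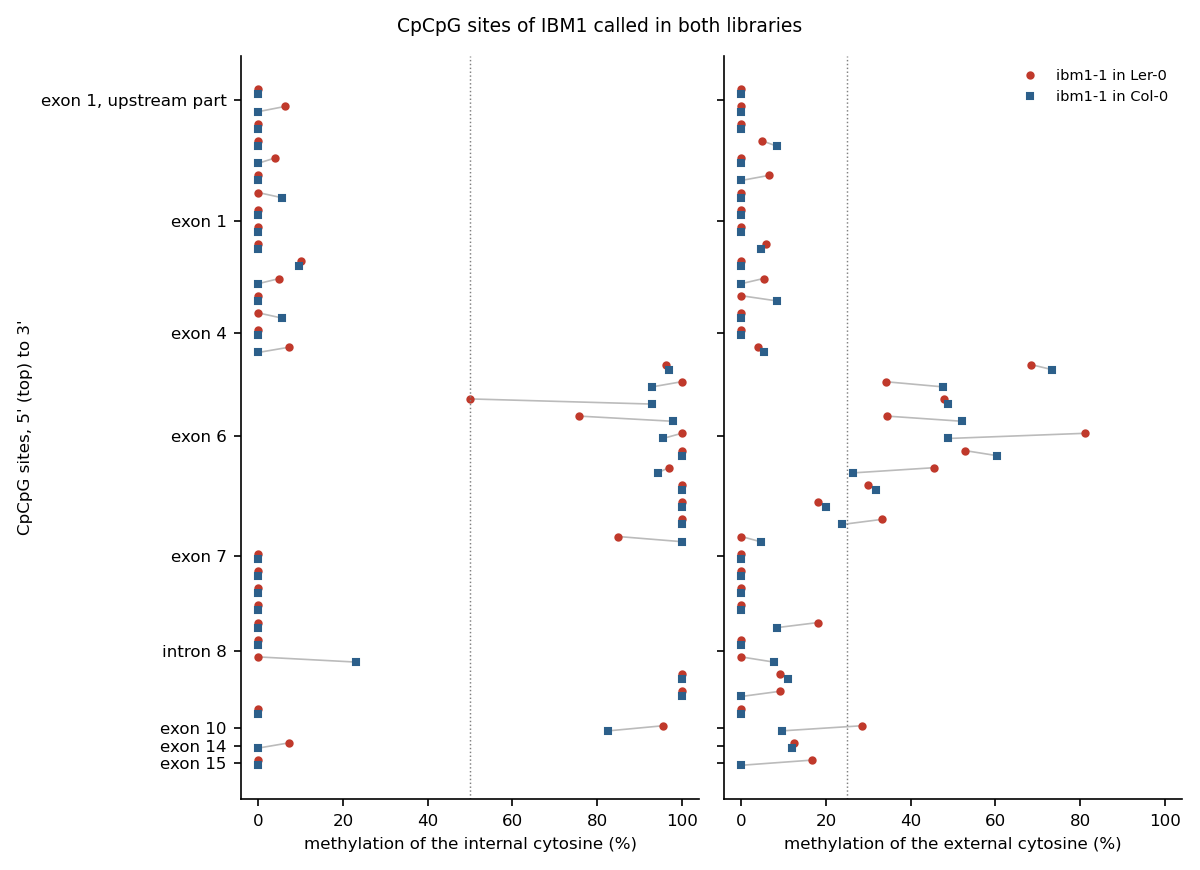
Methylation (%) of the internal and the external cytosine of the 40 CpCpG sites of IBM1 read in both libraries, in order from the 5′ end (top), in Ler-0 (red circles) and Col-0 (blue squares) joined by a line per site, with the 50% and 25% limits dotted. Most internal cytosines are near 0 or near 100%, the widest gaps being at 2 sites of exon 6 with 50% and 75.8% in Ler-0, and external cytosines above the limit occur in exon 6 and, in Ler-0, at 1 site of exon 10.

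Genes that act in the same pathway, and 2 whose long introns are its targets, were read beside *IBM1*. Of these 11 genes, 9 could be placed over at least 80% of their length, and 8 of the 9 had more CpHpG in Ler-0 and 1 less (median difference 6.89 points), against 58.4% of all genes with more. *IBM2*, whose product acts at the *IBM1* intron, had the largest difference, with 47.5% CpHpG in Ler-0 and 28.6% in Col-0 (18.8 points, 16.6 to 21.0). *EDM2*, which encodes a partner of IBM2, had 43.3% in Ler-0 and 36.5% in Col-0, and *EDM3* had 1.34% in Ler-0 and 2.26% in Col-0 (−0.91, −2.14 to 0.37). Of the DNA methyltransferase genes, *MET1* had 17.7% in Ler-0 and 3.48% in Col-0, *CMT2* 16.4% in Ler-0 and 3.30% in Col-0, and *CMT3* 11.9% in Ler-0 and 8.21% in Col-0. *MET1* and *CMT2* also had more CpG methylation in Ler-0, by 22.9 and 11.9 points, against a pooled 2.37 points in *IBM1*. The histone methyltransferase genes *KYP*, *SUVH5* and *SUVH6* had 36.1%, 20.2% and 11.7% in Ler-0, and 33.3%, 17.4% and 3.16% in Col-0. The remaining 2, *RPP7* and AT3G05410, whose long introns are targets of IBM2 and EDM2, were placed over 27.7% and 30.8% of their length and are not compared. In Col-0 their longest introns had 76.7% and 79.2% CpHpG as a whole. The whole *IBM1* long intron had 23.0% in Col-0, and its 3′ part 45.5%.

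**Figure D5:**
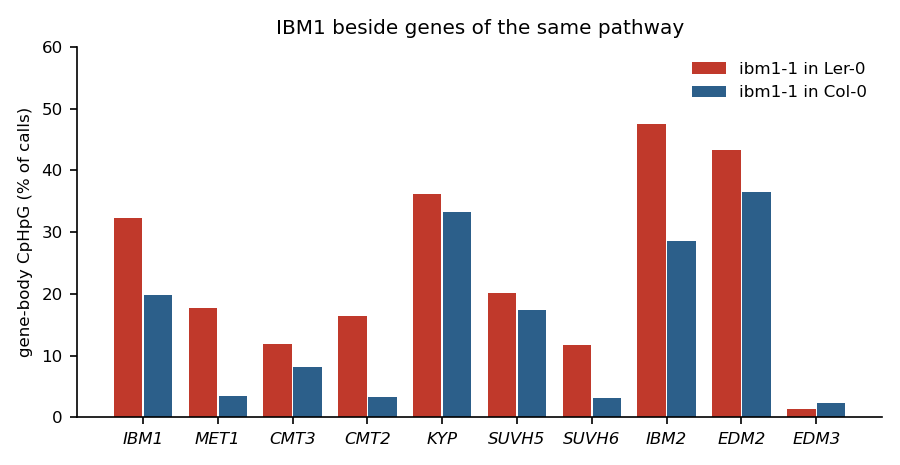
Gene-body CpHpG methylation (% of calls, linear axis from 0) of IBM1 and of 9 genes of the same pathway in Ler-0 (red bars) and Col-0 (blue bars), 1 library each. IBM1 stands at 32.2% in Ler-0 and 19.8% in Col-0, and the red bar is the higher one in all genes shown but EDM3.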

How the data were processed

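The authors trimmed the reads with Trimmomatic (per the labels), aligned them with Bismark to TAIR10 for Col-0 and to a PacBio assembly for Ler-0, collapsed duplicates and deposited cytosine reports with raw counts of methylated and unmethylated calls per cytosine. The sources used here give no versions. The Col-0 report matched the TAIR10 sequence used here on chromosome 3 but for 4 bases.

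The Ler-0 sequence was rebuilt from its report (all C and G, and A or T within 2 bases of them). *IBM1* with 1000 bp on each side was aligned globally (Biopython 1.88). Elsewhere 500-bp tiles were aligned with bwa 0.7.19, and 212150 of 236433 were kept. Backgrounds used regions placed over 80%, with at least 20 CpHpG calls and a mean of 4 reads per CpHpG cytosine. The scripts were tested on simulated data. The libraries held 313387873 calls in Ler-0 and 371653818 in Col-0.

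Named were intron 7 and its neighbours, the 3 highest features, the 3 largest and 3 smallest differences, the end exons, flanks and CpCpG sites. The long intron, the repeat stretch and other areas were chosen after their values were seen. The gene, lists and rules were chosen with earlier results of these data known. An upper limit for 0 methylated calls is 3 calls of the total.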

Additional observations from a re-analysis of the deposited data

How the results depend on the processing

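Of 59 values recomputed under alternatives, 46 stayed within their intervals or, for counts, within 1.5 times, 12 moved and 1 reversed. The reversed one is the intron difference: with the long intron of the 16-exon transcript in place of the 434-bp intron 7, an alternative chosen after seeing the data, it was 6.09 points in place of −2.81, since the longer piece takes in a methylated stretch. Also chosen after seeing the data, leaving out 2 CpG sites of the exon 6 repeat, picked for their lower level in Ler-0, moved the CpG difference of that exon to −1.56 points, in place of −5.46. The CpHpG difference of the gene was 9.72 points as a mean of cytosine levels and 8.72 on the minus strand alone, and that of the exons 11.2 on the minus strand, all of them positive like the pooled values. At a limit of 25% CpHpG, 8 exons and introns passed in Ler-0 and 7 in Col-0 (20.5% and 13.9% of all). With the external cytosine called at 50%, both cytosines were methylated at 3 sites of the Ler-0 library (11 at 25%) and 5 of the Col-0 library (10 at 25%). With at least 8 reads per CpHpG cytosine the background at 50% CpHpG was 13.3% in Ler-0 and 6.54% in Col-0, and 23.95% of gene tiles were at least 10 points higher in Ler-0. At a limit of 20 points 6.58% of gene tiles were higher. No paired analysis was possible because each ecotype has 1 library. Depth limits single features and sites: 7 of the 33 exons and introns had under 20 CpHpG calls in a library, and 27 CpCpG sites in Ler-0 and 24 in Col-0 had too few reads.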
